A study of Mus musculus with 8 samples.

Results

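The clustered protocadherins are cell surface proteins of the cadherin superfamily, encoded by genes that lie side by side in 3 clusters named alpha, beta and gamma. Here they were taken as the genes whose symbol is Pcdha, Pcdhac, Pcdhb, Pcdhga, Pcdhgb or Pcdhgc followed by a number. The rule gave 58 of the 24343 genes in the deposited table: 14 alpha, 22 beta and 22 gamma genes. Levels were measured by bulk RNA sequencing of whole brains from 3 mice of the strain C57BL/6NCrl, aged 56 to 62 days, without an experimental treatment and kept under a light and dark cycle with free access to food and water. Mice 1 and 2 each gave 3 libraries and mouse 3 gave 2. All mice belonged to a single group, so the design compares genes with each other and individual mice with each other, and the labels do not say what separates the libraries of a mouse.

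Each neuron is known to express a small and partly random set of these proteins, which pair with identical partners on opposing membranes and so let branches of a neuron recognise and avoid branches of the same cell. In the alpha and gamma clusters each gene has its own promoter and a large first exon that encodes the cadherin repeats, and this exon is spliced to 3 constant exons that encode a shared cytoplasmic end. Beta genes have a single exon and no constant part. The last genes of the alpha and gamma clusters, called C-type, are known to be less variable in their use from neuron to neuron than the others, and promoter choice depends on CTCF, cohesin and DNA methylation.

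All 58 genes lie on chromosome 18 of the mm10 assembly. The alpha genes spanned positions 36930285 to 37187660 (257 kb), the beta genes 37264998 to 37521419 (256 kb) and the gamma genes 37661945 to 37841872 (180 kb). In the GENCODE annotation of the same assembly, matched by RefSeq accession for 58 of 58 genes, each alpha and gamma gene had 4 exons and each beta gene had 1. The 14 alpha genes shared constant exons of 59, 89 and 2712 nt, and the 22 gamma genes shared constant exons of 59 and 89 nt. A last exon of 1971 nt with the same ends was shared by 17 of the 22 gamma genes. Downstream exons made up a median of 53.5% of an alpha transcript and 44.8% of a gamma transcript. The exception among gamma genes was Pcdhgb8, for which they made up 13.4% of the GENCODE transcript, 375 nt after a first exon of 2421 nt. The deposited transcript of Pcdhgb8 is longer, at 4617 nt, and ends at 37841872, the end of the gamma cluster. The 13.4% therefore does not describe the transcript behind its FPKM.

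A read from a constant exon can belong to any gene of its cluster, so the sharing of sequence was measured directly. Of all 50-nt windows in a transcript, a median of 59.97% also occurred in another clustered protocadherin for alpha genes, 44.8% for gamma genes and 4.26% for beta genes. Within the first exon alone the median was 14.7% for alpha genes and 0.730% for gamma genes. The alpha genes were thus the least separable by sequence, including their variable exons. None of the windows in the first exons of the C-type genes Pcdhac1, Pcdhac2, Pcdhgc3, Pcdhgc4 and Pcdhgc5 was found in another member, and the same held for Pcdhga1, Pcdhga7, Pcdhga11, Pcdhga12 and Pcdhb1. The deposited value of an alpha or gamma gene therefore rests on the authors' division of constant-exon reads between genes. Beta genes have no constant exon, and their shared windows reached at most 12.0%, in Pcdhb12. These shares are of GENCODE transcripts, some of them longer than the deposited ones, such as Pcdhb14 at 8695 against 3438 nt. Shares for the deposited transcripts were not computed, and the read length is not known.

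Sequencing depth on transcripts, taken as coverage times length, ran from 1.31 to 2.02 gigabases per library. The deposited unit is FPKM, the number of fragments per kilobase of transcript scaled to the depth of the library. All 58 members had 1 transcript each and no value with a failed status. The 2 libraries of mouse 3 stood apart from the other 6 in the summed FPKM of all genes, which was 295541 to 345572 in mice 1 and 2 and 384885 and 409889 in mouse 3. Values below are means over libraries within a mouse and then over mice, with the SD between 3 mice.

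Most clustered protocadherins were present at low levels in whole brain. In FPKM, the median member reached 1.59, against 3.98 for all genes with a value above 0. The range ran from 0.0400 ± 0.0211 for Pcdhb1 to 35.9 ± 2.63 for Pcdhgc3 (SD, n = 3). A mean of at least 1 FPKM was reached by 44 of 58 members, namely 8 of 14 alpha genes, 15 of 22 beta genes and 21 of 22 gamma genes. In bulk tissue, fewer cells that express a gene and less RNA per cell cannot be told apart, and a level here is an average over every cell type of the brain.

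**Figure D1:**
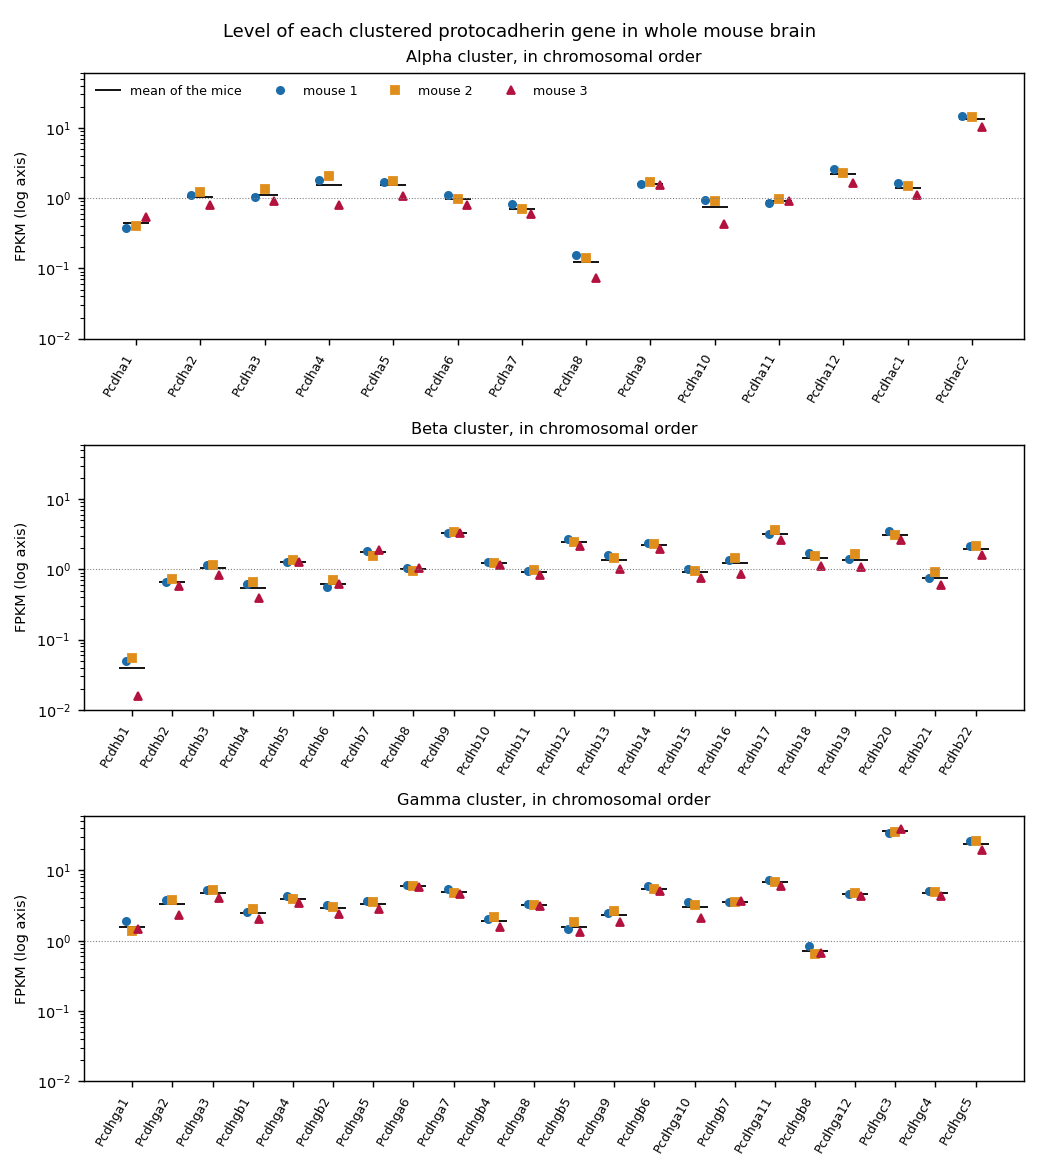
Level of each of the 58 genes in FPKM on a log axis, with the alpha, beta and gamma clusters in separate panels and genes in chromosomal order. Points are means of the libraries of each mouse, the black dash is the mean of the 3 mice and the dotted line marks 1 FPKM; Pcdhac2, Pcdhgc3 and Pcdhgc5, near the right end of their clusters, stand above all other members, and Pcdhb1 lies lowest.

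The gamma cluster gave the most RNA. Summed over its genes, it reached 131.2 ± 8.38 FPKM, the beta cluster 32.4 ± 3.53 FPKM and the alpha cluster 27.5 ± 5.18 FPKM (SD, n = 3). The gamma sum was 4.44, 4.49 and 5.64 times the alpha sum in mice 1, 2 and 3, and 3.95, 3.95 and 4.29 times the beta sum. The beta sum was 1.12, 1.14 and 1.32 times the alpha sum. Each order therefore held in 3 of 3 mice, and an exact two-sided sign-flip test over 3 mice cannot give a p below 0.25, which is the value it gave for all 3 ratios.

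The clusters differ in the number of their genes, and 2 of these ratios depended on how that was treated. Per gene, the mean was 5.97 FPKM for gamma, 1.97 FPKM for alpha and 1.47 FPKM for beta, so the mean beta gene was 0.759 ± 0.0684 times the mean alpha gene, whereas the median beta gene was 1.18 ± 0.0742 times the median alpha gene. Without the C-type genes, beta exceeded alpha 2.54-fold and gamma exceeded beta 2.05-fold in summed FPKM. Gamma exceeded both others in each of these summaries, while the order of beta and alpha changed between them.

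**Figure D2:**
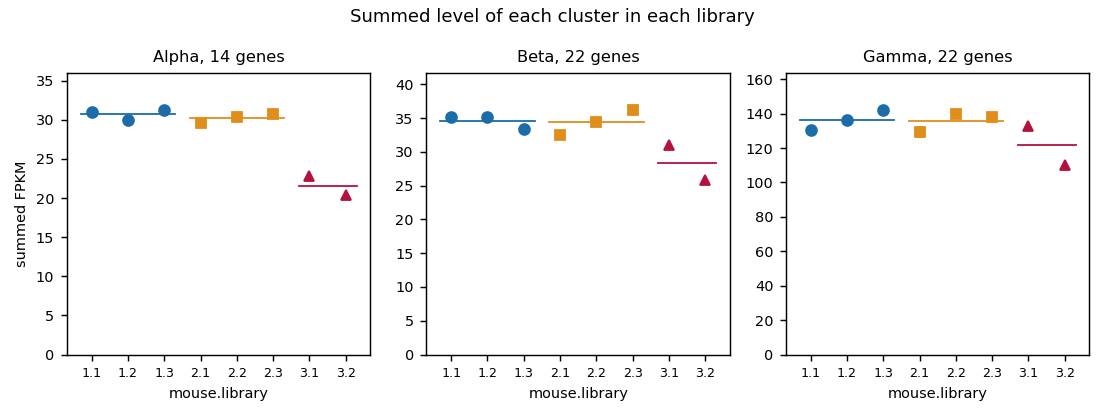
Summed FPKM of the alpha, beta and gamma genes in each of the 8 libraries, labelled by mouse and library number, with a separate axis from 0 for each cluster. Horizontal lines are the means of a mouse; both libraries of mouse 3 lie below the other 6 in the alpha and beta panels, and library 1 of mouse 3 lies among the others in the gamma panel.

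The C-type genes carried a large part of the total. They are 5 of the 58 genes and made up 41.6% ± 1.40 of all clustered protocadherin FPKM (SD, n = 3). Within their clusters they held 53.0% ± 0.992 of the alpha sum and 49.4% ± 1.92 of the gamma sum. Pcdhac2 and Pcdhgc3 were the highest genes of their clusters in 8 of 8 libraries.

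Among the gamma C-type genes, Pcdhgc3 was the highest of all members. It measured 33.1, 33.2 and 35.0 FPKM in the libraries of mouse 1, 34.2, 35.7 and 35.2 FPKM in those of mouse 2, and 39.3 and 38.4 FPKM in those of mouse 3. In the deposited FPKM it was the single member for which both libraries of mouse 3 lay above all others. That direction depended on the scaling, because the summed FPKM of all genes was larger in mouse 3. With libraries scaled to the same total, Pcdhgc3 differed in mouse 3 by -0.12 on the log2 scale, against a median of -0.24 over all genes tested. Pcdhgc5, the last gene of the cluster, measured 24.6, 26.0 and 28.1 FPKM in mouse 1, 27.1, 27.3 and 25.4 FPKM in mouse 2, and 23.6 and 15.2 FPKM in mouse 3. The lower value of mouse 3 in Pcdhgc5 came mostly from its library 2.

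Pcdhgc4, which lies between them, was far lower. It measured 4.43, 4.94 and 5.85 FPKM in mouse 1, 4.16, 5.68 and 5.16 FPKM in mouse 2, and 4.40 and 4.25 FPKM in mouse 3, so the mice overlapped. Its mean of 4.80 ± 0.411 FPKM placed it only seventh among the 22 gamma genes. Background knowledge sets Pcdhgc4 apart as the C-type gene whose protein is needed for neuronal survival.

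In the alpha cluster, Pcdhac2 was the highest gene with 48.0% of the cluster's sum. It measured 15.2, 15.4 and 14.4 FPKM in mouse 1, 14.1, 14.7 and 13.96 FPKM in mouse 2, and 11.01 and 9.67 FPKM in mouse 3. Both libraries of mouse 3 lay below the other 6. Its protein is known for its part in the axons of serotonergic neurons. Pcdhac1, its neighbour, measured 1.58, 1.69 and 1.59 FPKM in mouse 1, 0.946, 1.66 and 1.83 FPKM in mouse 2, and 1.04 and 1.14 FPKM in mouse 3, and the groups overlapped because of library 1 of mouse 2. With 1.40 ± 0.274 FPKM it was sixth of 14, within the range of the non-C genes.

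**Figure D3:**
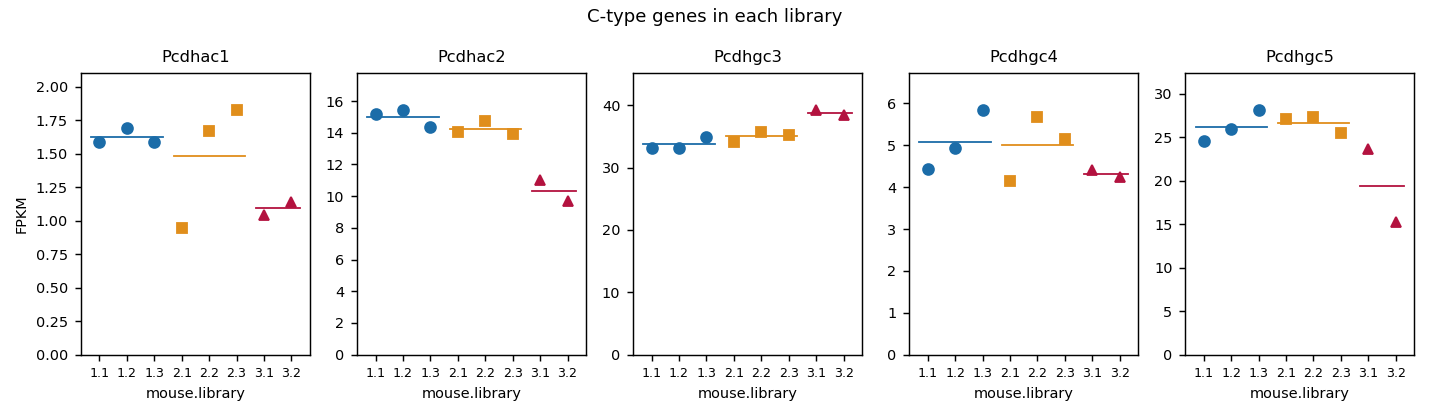
FPKM as deposited, not scaled to a common total, of the 5 C-type genes in each of the 8 libraries, labelled by mouse and library number, each panel with its own axis from 0. Horizontal lines are means of a mouse; Pcdhac2 is lower and Pcdhgc3 higher in both libraries of mouse 3 than in the other 6, and Pcdhgc5 has 1 low library, at 15.2 FPKM.

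The other alpha genes lay between 0.124 and 2.19 FPKM. In this group Pcdha12 was the highest at 2.19 ± 0.494 FPKM, before Pcdha9 at 1.61 ± 0.0836 FPKM and Pcdha4 at 1.56 ± 0.675 FPKM. The lowest were Pcdha8 at 0.124 ± 0.0440 FPKM and Pcdha1 at 0.443 ± 0.0900 FPKM. Pcdha8 measured 0.224, 0.142 and 0.101 FPKM in mouse 1, 1.47e-12, 0.219 and 0.209 FPKM in mouse 2, and 0.112 and 0.0356 FPKM in mouse 3. Its value in library 1 of mouse 2 is in effect 0, although the gene was not listed at 0. Of the 13 pairs of neighbours in the order of alpha levels, 3 had mouse means that did not overlap. This count, given below for beta and gamma too, compares ranges over mice and ignores that all genes share the same mice. Pcdha12 exceeded Pcdha9 in each mouse although their ranges overlapped. Pcdha4 exceeded Pcdha9 in mice 1 and 2 and lay below it in mouse 3.

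Alpha genes also share reads with overlapping transcripts of their own locus. The table lists Gm37013, Gm38666 and Pcdha7-g, which start with the first exons of Pcdha4, Pcdha6 and Pcdha7 and run to the end of the gamma cluster, and they were not counted as members. They measured 0.452 ± 0.156, 0.531 ± 0.161 and 0.673 ± 0.0542 FPKM, about as high as the weaker alpha genes. Pcdha7-g and Pcdha7, at 0.708 ± 0.104 FPKM, were nearly equal. For Pcdha4 the coefficient of variation between mice was 43.3% alone and 26.0% when Gm37013 was added, and how reads were divided between them was not tested. The levels of Pcdha4, Pcdha6 and Pcdha7 are uncertain for that reason.

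The highest beta gene held 10.3% of its cluster. The 6 highest of 22 beta genes were needed to outweigh the rest of their cluster, against 2 alpha genes and 3 gamma genes with the C-type genes included. Without the C-type genes the highest gene exceeded the lowest 83.6-fold in beta, 17.7-fold in alpha and 9.43-fold in gamma. The beta ratio rests on Pcdhb1 at 0.0400 FPKM, listed at 0 in 2 libraries, while the next lowest beta gene measured 0.552 FPKM. The alpha ratio rests on Pcdha8 at 0.124 FPKM, while the next lowest alpha gene measured 0.443 FPKM. The highest beta genes were Pcdhb9 at 3.34 ± 0.0453 FPKM, Pcdhb17 at 3.17 ± 0.504 FPKM, Pcdhb20 at 3.08 ± 0.4661 FPKM and Pcdhb12 at 2.46 ± 0.298 FPKM. Pcdhb9 led in 4 of 8 libraries only, and 1 of 21 pairs of neighbours in the order of beta levels had mouse means that did not overlap. Levels tended to be higher towards the gamma side of the cluster, with Spearman's rho of 0.50 between level and chromosomal order over 22 genes that share libraries and depth, against 0.15 over 12 non-C alpha genes and 0.09 over 19 non-C gamma genes.

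Pcdhb1 was the exception at the low end. This gene, the first of the cluster, was listed at 0 in library 1 of mouse 1 and library 2 of mouse 3, and measured 0.121 and 0.0266 FPKM in the other libraries of mouse 1, 0.0394, 0.0655 and 0.0601 FPKM in mouse 2, and 0.0317 FPKM in library 1 of mouse 3. It was the one member with a listed value of 0. In the libraries with a value above 0, its upper confidence bounds correspond to a median of about 1.497 fragments per library. Its zeros therefore mean that it was not detectable at this depth. The next lowest, Pcdhb4, measured 0.552 ± 0.141 FPKM.

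The gamma genes other than the C-type lay between 0.716 and 6.75 FPKM. The highest were Pcdhga11 at 6.75 ± 0.585 FPKM and Pcdhga6 at 6.00 ± 0.198 FPKM, and the lowest were Pcdhgb8 at 0.716 ± 0.1002 FPKM and Pcdhgb5 at 1.55 ± 0.256 FPKM. The 12 Pcdhga genes averaged 3.98 FPKM and the 7 Pcdhgb genes 2.67 FPKM. In the order of gamma levels, 4 of 21 pairs of neighbours had mouse means that did not overlap.

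The order of genes within a cluster recurred between mice. Across non-C genes, which are not independent replicates, Spearman's rho between mice 1 and 2 was 0.97 for alpha, 0.98 for beta and 0.99 for gamma. Between mouse 3 and the other two it was 0.73 and 0.80 for alpha, 0.95 and 0.94 for beta and 0.95 and 0.96 for gamma. The alpha order was the least repeatable, in the cluster with the lowest sum and the most shared sequence, and the part of these properties in it was not tested.

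Precision differed between the clusters. The deposited upper confidence bound lay above its value by a median of 28.3% for alpha genes, 25.7% for beta genes and 16.5% for gamma genes. If the upper bound lies 2 SDs of a count above the value, gene medians correspond to 5.87 to 571 fragments per library for alpha genes. They correspond to 1.497 to 147 for beta and 28.0 to 962 for gamma genes. Between mice, the median coefficient of variation was 15.4% over the 44 members with at least 1 FPKM and 12.3% over all 13001 genes of that level.

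Variation between mice differed widely within each cluster. Among genes of at least 1 FPKM, the least variable were Pcdha9 (5.20%) and Pcdhac2 (19.0%) for alpha, Pcdhb9 (1.35%) and Pcdhb5 (4.14%) for beta, and Pcdhgb7 (2.89%) and Pcdhga8 (3.24%) for gamma, as coefficients of variation. The most variable were Pcdha4 (43.3%) and Pcdha5 (25.7%), Pcdhb16 (25.3%) and Pcdhb13 (23.2%), and Pcdhga10 (25.9%) and Pcdhga2 (25.8%). For each of the most variable genes mouse 3 had the lowest mean.

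The mice were then compared gene by gene. By limma's F-test of log2(FPKM + 1), with p-values adjusted by the Benjamini-Hochberg method, 5 of the 44 members tested (11.4%) differed between the mice at an adjusted p under 0.05. Among all 13001 genes tested, 25.5% did. All 5 were lower in mouse 3 than the mean of mice 1 and 2. Of all genes tested, 11.3% were both called and lower in mouse 3. The share of members called lower was thus close to the background. Libraries stand in for replicates here, so these p-values measure the spread between libraries of the same mouse.

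Of the 5, 3 were alpha genes. Pcdha4 measured 1.73, 1.27 and 2.45 FPKM in mouse 1, 2.18, 1.80 and 2.23 FPKM in mouse 2, and 0.832 and 0.755 FPKM in mouse 3, a difference of -0.70 (SE 0.14, adjusted p = 0.0223) on the log2 scale. Together with Gm37013 it still measured 1.59 and 1.24 FPKM in mouse 3, against 2.01 to 2.64 FPKM in the other libraries. Pcdha5 measured 1.73, 1.74 and 1.68 FPKM in mouse 1, 1.99, 1.72 and 1.58 FPKM in mouse 2, and 1.25 and 0.888 FPKM in mouse 3, a difference of -0.41 (SE 0.09, adjusted p = 0.0316). Pcdhac2, whose values stand above, differed by -0.46 (SE 0.08, adjusted p = 0.0122).

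The other calls were a beta and a gamma gene. Pcdhb16 measured 1.45, 1.30 and 1.28 FPKM in mouse 1, 1.47, 1.41 and 1.45 FPKM in mouse 2, and 1.01 and 0.726 FPKM in mouse 3, a difference of -0.36 (SE 0.08, adjusted p = 0.0301). Pcdhga10 measured 3.66, 3.64 and 3.54 FPKM in mouse 1, 2.76, 3.01 and 4.03 FPKM in mouse 2, and 2.30 and 1.96 FPKM in mouse 3, a difference of -0.50 (SE 0.11, adjusted p = 0.0298). In each of the 5 genes both libraries of mouse 3 lay below the other 6. A fold change on this scale understates that of low genes because of the added 1 FPKM.

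**Figure D4:**
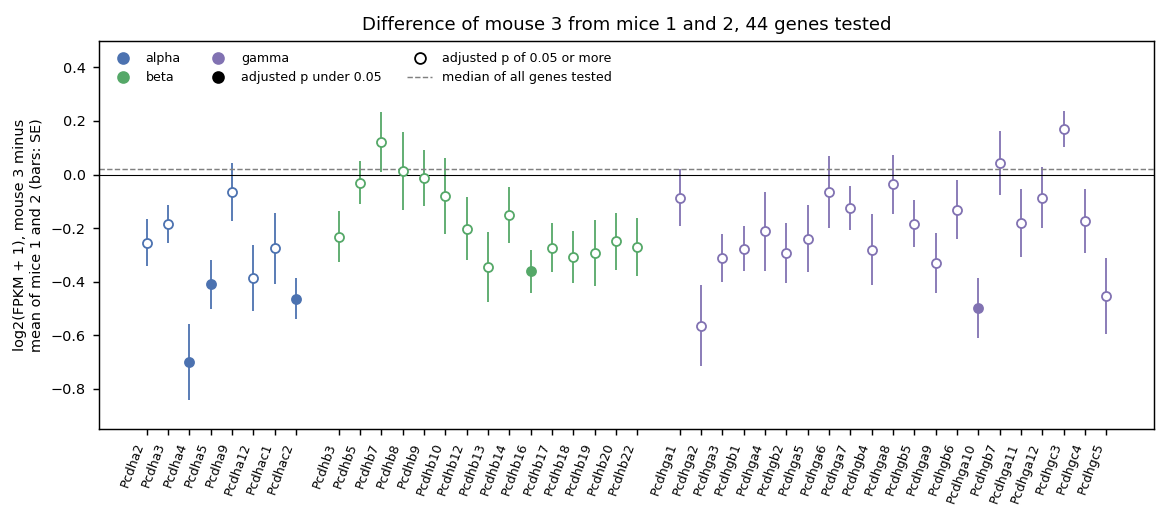
Difference of mouse 3 from the mean of mice 1 and 2 in log2(FPKM + 1) for the 44 members tested, in chromosomal order, with bars for the SE from limma. Filled points are the 5 genes with an adjusted p under 0.05, all below 0, and 40 of the 44 points lie below 0 while the median of all genes tested, the dashed line, is 0.02.

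Beyond these calls, most members were lower in mouse 3 without passing the test. The difference was below 0 in 40 of 44 members, namely 8 of 8 alpha, 13 of 15 beta and 19 of 21 gamma genes, against 47.8% of all genes tested. Its median was -0.24 over the members and 0.02 over all genes tested. The 6211 tested genes within the members' range of transcript lengths had a median of -0.05, and 57.6% of them were lower in mouse 3. The part of transcript length in the difference was not tested. With the trend of each library with length removed, 34 of 44 members were lower, with a median of -0.13, against 51.1% of all genes. With libraries scaled to the same total, 55 of 56 members were lower, with a median of -0.50, against 72.8% of all genes and a median of -0.24. That total was larger than the summed FPKM of any library, so the added 1 and the minimum of 1 weighed less there. Both libraries of mouse 3 lay below the other 6 in 16 of the 44 members (36.4%), against 21.7% of all genes tested.

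The summed level of mouse 3 was lower by 29.5% for alpha, from 29.6 to 31.3 FPKM per library in mice 1 and 2 to 22.8 and 20.3 FPKM. For beta the range in mice 1 and 2 was 32.5 to 36.2 FPKM and the libraries of mouse 3 measured 30.9 and 25.8 FPKM. For gamma the range was 129.1 to 142.2 FPKM against 132.8 and 110.3 FPKM, and the groups overlapped. On the log2 scale mouse 3 differed by -0.50 for alpha, -0.29 for beta and -0.17 for gamma, and without its library 2 by -0.42, -0.15 and -0.034. With the length trend removed, the differences for alpha and gamma were -0.27 and -0.025. No p-value is given for these sums.

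Ratios between C-type genes were compared as a description. The ratio of Pcdhgc3 to Pcdhgc5, chosen after the values were seen, was 1.24 to 1.38 in the 6 libraries of mice 1 and 2 and 1.66 and 2.52 in those of mouse 3. On the log2 scale mouse 3 differed by 0.65, and by 0.35 without its library 2. The ratio of Pcdhac2 to Pcdhac1 was 7.64 to 14.9 in mice 1 and 2 and 10.6 and 8.47 in mouse 3, with full overlap. In the test by gene, Pcdhgc3 differed by 0.17 (SE 0.07, adjusted p = 0.166) and Pcdhgc5 by -0.45 (SE 0.14, adjusted p = 0.0950), neither past the threshold, and with all libraries scaled to the same total the value for Pcdhgc3 was -0.12, while the median of all genes moved to -0.24.

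The number of calls depended on which libraries were used, among the members as among all genes. Without library 2 of mouse 3 limma called 0 of 44 members, with 5 at an unadjusted p under 0.05, 0 of 49 pathway genes described below, and 0.969% of all genes. The differences without that library were -0.67 for Pcdha4, -0.38 for Pcdhac2, -0.42 for Pcdhga10, -0.29 for Pcdha5 and -0.25 for Pcdhb16. Leaving out library 1 of mouse 3 gave 9 members (29.4% of all genes), library 1 or 2 of mouse 2 gave 8 or 3 (29.8% or 18.1%), and each library of mouse 1 gave 2 (12.9% to 14.7%). Over these 8 fits Pcdhac2 passed in 7, Pcdha4 in 6, Pcdha5 in 3, Pcdhga10 in 3 and Pcdhb16 in 2. Between mice 1 and 2 alone limma called 0 of 45 members, with 2 at an unadjusted p under 0.05, and 0.0232% of all genes. Scaling every library to the same larger total gave 28 calls of 56 members, all lower in mouse 3, with 35.1% of all genes called. Of all calls 87.4% were then lower in mouse 3, against 44.6% before. The smaller weight of the added 1 and of the minimum of 1 on that scale was not separated from the scaling. Removing the length trend left 3 of 44, with 20.4% of all genes called, where Pcdhac2 and Pcdhga10 were lower and Pcdhgc3 was higher in mouse 3.

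Cell type markers moved with the same mouse, and their part in the differences was not tested. The summed level of 3 neuronal markers was 1352 to 1466 FPKM in mice 1 and 2 and 1152 and 1281 FPKM in mouse 3, and 2 of them, Syt1 and Rbfox3, were called lower. The 3 oligodendrocyte markers summed to 1848 to 2033 FPKM against 3598 and 4485 FPKM, with 2 of 3 called higher, and the 3 astrocyte markers to 135.2 to 146.3 FPKM against 192.8 and 209.7 FPKM, with 3 of 3 called higher. Of 3 markers each, 1 was called higher among the microglial, endothelial and blood lists, and so was the 1 serotonergic marker tested.

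Markers of the cerebellum, choroid plexus and pituitary gave no call. None of the 3 markers each of cerebellar granule cells, Purkinje cells and choroid plexus, or of the 1 pituitary marker tested, passed the test, with summed levels of 119 and 155, 238 and 331, 426 and 560, and 2.12 and 2.03 FPKM in mouse 3 against 120.0 to 128, 184 to 216, 313 to 541, and 1.45 to 3.17 FPKM in mice 1 and 2. The serotonergic marker Fev and the pituitary markers Prl and Gh were listed at 0 in at least 1 library, and all other markers were above 0 throughout.

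Genes related to the clustered protocadherins by family or by known function, listed for this comparison, were measured beside them. Of 53 listed genes 52 were found by symbol and 49 were tested, of which 15 were called, 13 of them lower and 2 higher in mouse 3, against 25.5% of all genes called and 11.3% called and lower. The counts of the single lists below are small and stand against the same shares. Wapl was not matched by symbol.

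The nonclustered protocadherins are single genes outside the 3 clusters with the same kind of extracellular repeats. Their median level was 5.68 FPKM over 13 genes, with the highest values in Pcdh10 (25.5 ± 2.09 FPKM) and Pcdh9 (22.9 ± 3.32 FPKM) and the lowest in Pcdh12 (0.0747 ± 0.0229 FPKM), known from endothelial cells. Of 12 tested, 4 were called, all lower in mouse 3, with a median difference of -0.27 over the list. Pcdh9 differed by -0.36 (SE 0.07, adjusted p = 0.0245), Pcdh7 by -0.41 (SE 0.10, adjusted p = 0.0468) and Pcdh17 by -0.37 (SE 0.08, adjusted p = 0.0277). The fourth, named after its value was seen, was Pcdh15, which differed by -0.40 (SE 0.08, adjusted p = 0.0227). With the length trend removed none of the 4 was called by limma, and the differences were -0.18, -0.17, -0.10 and -0.14, with adjusted p from 0.257 to 0.417. The median of the clustered genes, -0.24, was of similar size.

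The factors of promoter choice and chromatin at the clusters included the cohesin subunits, which extrude DNA loops, and CTCF, which stops them. Rad21 (41.1 ± 6.87 FPKM) and Smc1a (18.7 ± 5.05 FPKM) were the highest and Dnmt3b (0.211 ± 0.0450 FPKM), a DNA methyltransferase, the lowest. Of 14 tested, 5 were called lower and 1 higher in mouse 3, with a median of -0.32. The cohesin subunits differed in direction: Smc1a differed by -0.71 (SE 0.11, adjusted p = 0.0101) and Smc3 by -0.47 (SE 0.08, adjusted p = 0.0167; 0.0773 with the length trend removed), whereas Rad21 differed by 0.39 (SE 0.09, adjusted p = 0.0308), and by 0.09 without a call when libraries were scaled to the same total.

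The proteases that cut protocadherins, Adam10 at the outer face and the gamma-secretase complex within the membrane, gave no call among 7 tested, with a median of 0.03. Psenen (59.8 ± 13.6 FPKM) and Adam10 (21.2 ± 2.68 FPKM) were the highest and Psen2 (5.38 ± 0.133 FPKM) the lowest.

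The cytoplasmic and membrane partners included the focal adhesion kinases that the constant part inhibits and the WAVE complex, which drives actin branching. Rac1 (130.2 ± 5.46 FPKM) and Cyfip2 (125.8 ± 12.3 FPKM) were the highest and Ret (3.08 ± 0.169 FPKM), a receptor kinase, the lowest. Of the 16 tested, 4 were called lower and 1 higher in mouse 3, with a median of -0.19. Ptk2b differed by -0.61 (SE 0.12, adjusted p = 0.0203) and Wasf1, a WAVE subunit, by -0.49 (SE 0.09, adjusted p = 0.0141), while Brk1, the smallest WAVE subunit, differed by 0.68 (SE 0.12, adjusted p = 0.0148).

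**Figure D5:**
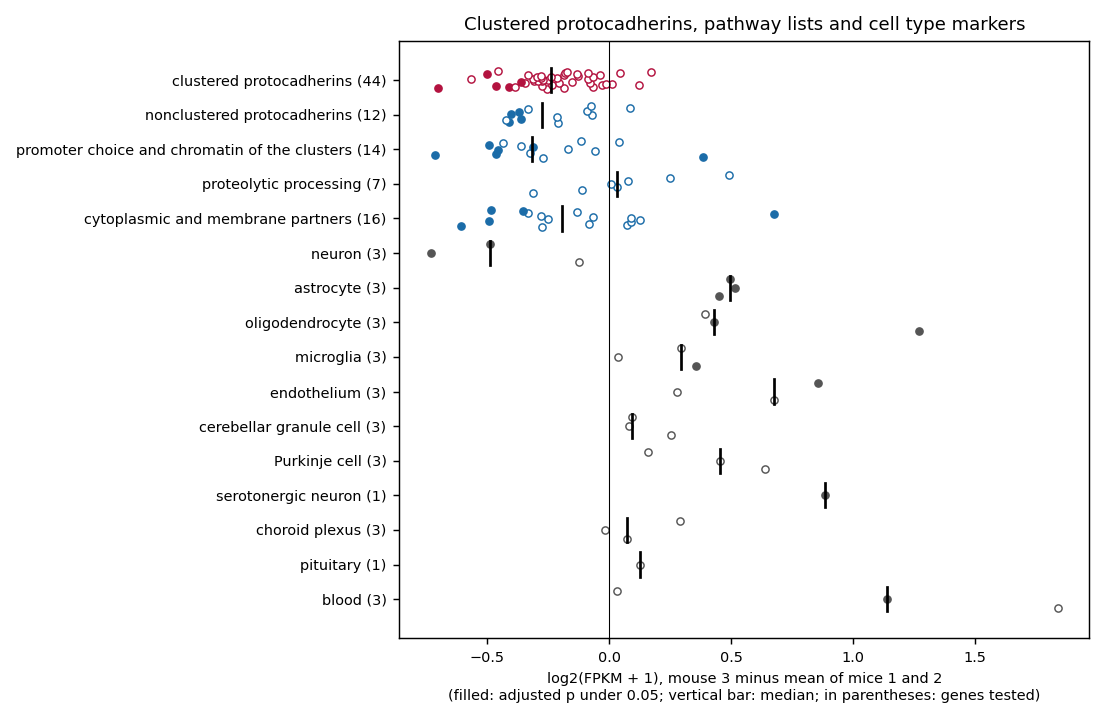
Difference of mouse 3 from the mean of mice 1 and 2 in log2(FPKM + 1), with 1 point for each gene tested, for the clustered protocadherins (red), 4 pathway lists (blue) and 11 cell type marker lists (grey). Filled points have an adjusted p under 0.05 and vertical bars are list medians, which lie below 0 for the clustered protocadherins, 3 of the pathway lists and the neuronal markers, and above 0 for the proteases and the other 10 marker lists.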

How the data were processed

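An RNAqueous Micro kit was used to isolate whole-brain RNA, and Kapa mRNA HyperPrep kits to build the libraries. The submitters' processing notes name TopHat, Cufflinks and mm10; read length and strand are not given in the sources used here. The authors deposited FPKM for each of 34535 RefSeq transcripts per library, with lower and upper FPKM bounds, and coverage, a signal of read depth per base that was deposited unscaled for library size. Values come from the authors' division of reads between overlapping transcripts.

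FPKM was summed over a gene's transcripts and averaged per mouse, then over mice. Between 1.31 and 2.02 gigabases per library lay on transcripts; FPKM is not a count, so no counting interval was computed. Mice were compared with limma 3.58.1 (R 4.3.3) on log2(FPKM + 1), over 13001 genes that averaged 1 FPKM or more, adjusting p-values by the Benjamini-Hochberg method, after a test on simulated data. An exact test laid out for the summed levels by mouse was not used, because the sums are scores over chosen genes. Exons and shared windows come from GENCODE vM21 (GRCm38).

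Members and lists were chosen with earlier results of these data known. Genes are named by fixed rules: extremes of level and of variation, C-type genes, members called or at 0, and, of each list, the 2 highest, the lowest and up to 3 calls. Alternatives were pseudocounts of 0.1 and 0.5, other FPKM minimums, scaling to a common total, removal of the length trend, the highest transcript, equal weight of libraries, other summaries of a cluster, a block for the library number and leaving out each library. The comparison of mice 1 and 2 alone and the ratios of single genes were added after the data were seen.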

Additional observations from a re-analysis of the deposited data

Results flagged for a closer look

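In a group of 8 libraries, a value was singled out when its gap to the nearest other value relative to the whole range exceeded Dixon's critical value, which chance passes in about 1 in 20 groups. Of 64 quantities examined (58 genes, 3 sums and 3 ratios), 7 passed, and 6 came from library 2 of mouse 3. There, Pcdhga2 measured 1.60 FPKM (next lowest 3.07), Pcdhgb2 1.87 FPKM (next lowest 2.92), Pcdhgb4 1.13 FPKM (next lowest 1.78) and Pcdhgc5 15.2 FPKM (next lowest 23.6). All 4 are gamma genes. The gamma sum of the same library, which includes them, was 110.3 FPKM and also lay apart from the next lowest, 129.1 FPKM. The ratio of Pcdhgc3 to Pcdhgc5, which uses the same Pcdhgc5 value, was 2.52 there, with 1.66 as the next highest. The flags of this library are therefore not independent of each other. The ratio of Pcdhac2 to Pcdhac1 was 14.9 in library 1 of mouse 2, with 10.6 as the next highest. Library 2 of mouse 3 also had the highest summed FPKM of all genes, 409889. Its marker sums were the highest for every list except the neuronal and pituitary ones. They reached 4485 FPKM for oligodendrocytes, 331 FPKM for Purkinje cells and 155 FPKM for cerebellar granule cells, against 3598, 238 and 119 FPKM in library 1 of mouse 3. The part of these sums in the low gamma values was not tested.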

How the results depend on the processing

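Leaving out 1 library at a time gave 0 to 9 members called (main 5) and 0 to 21 pathway genes (main 15). Without library 2 of mouse 3 both counts were 0 and 0.969% of all genes were called, against 25.5%. The members called were 2 without any 1 library of mouse 1 (12.9% to 14.7% of all genes), 8 or 3 without library 1 or 2 of mouse 2 (29.8% or 18.1%) and 9 without library 1 of mouse 3 (29.4%); the pathway genes called were 6 or 7 without a library of mouse 1 and 9 without library 2 of mouse 2. With libraries scaled to the same total the calls were 28 members and 32 pathway genes, and the median member and the alpha, beta and gamma sums became 4.70, 81.2, 95.1 and 383 on the new scale. With the length trend removed the calls were 3 and 8, and with a minimum of 5 FPKM 1 of the 6 members left was called. Mice 1 and 2 alone gave 0 and 0, with 0.0232% of all genes called. The ratio of beta to alpha turned to 0.759 with means per gene. The difference of mouse 3 in log2 summed FPKM (main -0.50 for alpha, -0.29 for beta, -0.17 for gamma) was -0.80, -0.59 and -0.47 with libraries scaled to the same total, and -0.27 for alpha and -0.025 for gamma with the length trend removed. Leaving out 1 library moved it between -0.59 and -0.42 for alpha, -0.42 and -0.15 for beta, and -0.30 and -0.034 for gamma, the ends being set by the libraries of mouse 3. The cause of these shifts was not tested.

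Library numbers recur between mice, but the 7 same-numbered pairs deviated together with r of 0.00276 to 0.107, so the numbers were not taken to pair libraries; 5 of 8 libraries correlated best with their own number. With the number as a replicate block 4 members and 12 pathway genes were called; Pcdhga10, Pcdh9, Rad21, Pds5b and Nlgn1 then missed the threshold, with adjusted p from limma of 0.0510 to 0.0683. The main limits are the single group, the 2 libraries of mouse 3, constant-exon reads divided by estimation in alpha and gamma, and few fragments for genes under 1 FPKM, of which 14 members were not tested.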
